A study of Rattus norvegicus with 13 samples.

Results

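Insulin reaches the liver cell through a short relay. The insulin receptor, encoded by Insr, phosphorylates adaptor proteins such as the product of Irs1. These recruit the regulatory subunit of PI 3-kinase, encoded by Pik3r1, and the lipid that PI 3-kinase makes brings PDK1 (gene Pdpk1) and the AKT kinases (Akt1 and Akt2) together at the membrane. PDK1 phosphorylates and switches on AKT, and AKT switches off the glycogen synthase kinases encoded by Gsk3a and Gsk3b. The phosphatase PTP1B, encoded by Ptpn1, removes the phosphates from the receptor and so ends the signal. In liver this relay favours glycogen and fat synthesis and holds back glucose production. It acts through protein phosphorylation, which an expression array does not measure.

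The mRNA of these 9 genes, of 4736 that a probe set names alone, was followed in the liver of time-mated female Sprague Dawley rats. Every probe set (a group of short probes read as 1 value) that the array's annotation assigns to just 1 of the 9 genes was taken, which gave 17 of the 8740 probe sets that are not controls. All 13 arrays of the series were used. Daily energy supply was set per kg of body weight raised to the power 0.75. The TEN-220 group (n = 3) had 220 kcal and no ethanol, and the EtOH-220 group (n = 3) had this energy with a daily 12 g of ethanol per kg. The TEN-160 group (n = 3) was undernourished on 160 kcal without ethanol, and the EtOH-160 group (n = 4) had 160 kcal with 12 g of ethanol. The animals' age, the day of gestation and whether an array holds 1 animal or a pool are not given in the sources used here, so the p-values measure the spread between these samples. Signals are given after quantile normalization, in array units. A change is a difference of mean log2 signal with its standard error (SE), and it was called at an adjusted p under 0.05. Signals under the background of 43.9, set by 19 control probe sets for bacterial and yeast sequences, were read as not measured above background.

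Of the 17 probe sets, 14 passed the filter on dim probe sets and were tested, for 8 of the 9 genes. The 2 probe sets of Pik3r1 and 1 of the 5 of Ptpn1 did not pass. The TEN-160 arrays differed from the other 10 in more than their diet group. The score on the first principal component (31.1% of the variance of all tested probe sets) was 31.0 to 43.1 on them and −13.6 to −2.98 on the others. The 5'/3' signal ratio of the spiked bacterial control BioDn was 0.422 to 0.497 on them and 0.132 to 0.210 on the others. For GAPDH the ratio of 3' to 5' signal, which rises as RNA breaks down, ranged from 1.03 to 1.24 on the TEN-160 arrays. It was higher on every array of TEN-220 (1.52 to 2.32) and of EtOH-160 (1.505 to 1.73), the groups TEN-160 is compared with, and overlapped with EtOH-220 (1.04 to 1.47). The same ratio for actin did not set TEN-160 apart, at 1.91 to 2.96 there and 1.77 to 3.002 on the other arrays. Diet and these differences between arrays cannot be told apart in any comparison that uses TEN-160. The hepatocyte markers fixed for the check were bright: Alb, the gene of serum albumin, had mean signals of 34604 to 38438 in the 4 groups, and the summed signal of 8 markers overlapped between TEN-160 (135131 to 140132) and EtOH-160 (138856 to 144223).

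The members that moved were Pdpk1, Akt1 and Insr, and TEN-160 was the lowest group for all 3. In TEN-160 against TEN-220, the comparison of a lower energy supply without ethanol, Pdpk1 and both probe sets of Akt1 were lower. In EtOH-160 against TEN-160, the comparison of ethanol in undernourished rats, the same 3 probe sets and that of Insr were higher. Irs1, Akt2, Gsk3a, Gsk3b and Ptpn1 were not called in any of the 6 comparisons. In a whole-liver sample, fewer cells of a type and less RNA per cell cannot be told apart.

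To set sequence beside the members called in any comparison, the promoters of Pdpk1, Akt1 and Insr are shown. Each runs from 250 bases before to 50 bases after the annotated start, on the gene's strand, from RefSeq's annotation of the rat build GRCr8. Capitals mark matches on either strand to 5 motifs: GTAAACA (bound by FOXO factors, which insulin restrains), the E-box CACGTG, the cAMP response element TGACGTCA, the GC box GGGCGG and the CCAAT box. No 2 different motifs overlapped in the 9 promoters.
Pdpk1, chr10:13679126-13679425, minus strand: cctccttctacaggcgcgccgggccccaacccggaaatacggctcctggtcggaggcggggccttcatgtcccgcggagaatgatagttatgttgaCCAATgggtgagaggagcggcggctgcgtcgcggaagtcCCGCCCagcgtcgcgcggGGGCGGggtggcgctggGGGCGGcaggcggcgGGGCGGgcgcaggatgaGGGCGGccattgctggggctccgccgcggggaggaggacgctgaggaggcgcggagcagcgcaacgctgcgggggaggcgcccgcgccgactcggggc
Akt1, chr6:137552561-137552860, minus strand: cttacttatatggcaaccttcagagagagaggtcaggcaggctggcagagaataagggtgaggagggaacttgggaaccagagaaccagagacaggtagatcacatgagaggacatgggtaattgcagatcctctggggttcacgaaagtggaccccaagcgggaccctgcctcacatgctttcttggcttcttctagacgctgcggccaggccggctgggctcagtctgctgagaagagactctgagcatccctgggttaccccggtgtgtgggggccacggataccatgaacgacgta
Insr, chr12:6128754-6129053, minus strand: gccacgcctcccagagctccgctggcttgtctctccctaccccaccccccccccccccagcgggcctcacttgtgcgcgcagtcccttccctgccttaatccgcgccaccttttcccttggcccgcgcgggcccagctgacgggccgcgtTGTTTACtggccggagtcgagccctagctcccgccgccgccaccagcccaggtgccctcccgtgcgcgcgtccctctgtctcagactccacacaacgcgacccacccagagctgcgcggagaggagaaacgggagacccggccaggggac

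The 3 windows were unlike in these letters. Pdpk1 had 5 GC boxes and 1 CCAAT box in a window of 74.7% G and C, and Insr had 1 FOXO motif in a window of 71.3%. Around its annotated start, Akt1 had none of the 5 motifs in a window of 56%. Whether liver uses these annotated starts was not tested, and sequence at any other start of a gene is not covered. Among all 33469 promoters of this length, 3.78% held the FOXO motif, 33.1% a GC box and 37.5% a CCAAT box. In the set of 9 genes, the FOXO motif was found for 1 (Insr), the GC box for 5 (Gsk3a, Irs1, Pdpk1, Pik3r1 and Ptpn1), the CCAAT box for 2 (Pdpk1 and Pik3r1), the E-box for 1 (Gsk3b, against 6.42% of all) and the cAMP response element for 0 (against 1.83%). The windows of the 5 members with a GC box held 64% to 75.3% G and C. Over all promoters the median was 51.7% and the upper quartile 60.3%, and base composition was not matched in these shares. A match describes letters in this window and shows no binding.

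Insr, the receptor, had 1 probe set. Its signals were 227, 132 and 198 in TEN-220, 233, 146 and 167 in EtOH-220, 142, 157 and 115 in TEN-160, and 219, 181, 276 and 292 in EtOH-160. All 4 EtOH-160 arrays lay above all 3 TEN-160 arrays, and both of these groups overlapped with the arrays at 220 kcal. With ethanol at 160 kcal Insr rose by 0.79 (SE 0.246, limma adjusted p = 0.0333), from a geometric mean of 137 to 237. This call was lost without any 1 of TEN-160 replicates 1 and 3 or EtOH-160 replicates 1, 3 and 4, and its adjusted p then reached 0.116, with changes from 0.67 to 0.93 whichever array was dropped. It was lost as well under trimmed-mean scaling in place of quantile normalization (0.66, adjusted p = 0.0850). The other pairwise changes of Insr were between −0.40 and 0.41, with adjusted p from 0.320 to 0.990. The difference between the ethanol effects at 160 and 220 kcal was 0.81 (SE 0.361, adjusted p = 0.182) and was not called.

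Irs1, the adaptor, kept nearly the same mean in all groups. Its geometric mean signals were 99.7 in TEN-220, 108 in EtOH-220, 97.6 in TEN-160 and 86.6 in EtOH-160. The TEN-220 arrays lay close together, at 95.4, 103 and 100.4, whereas the EtOH-160 arrays ran from 46.2 to 148 and enclosed all the other arrays. Its 5 pairwise changes were between −0.32 and 0.12, and their 95% intervals together reached from −1.06 to 0.91, so a change of 2-fold lay within them.

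Pik3r1, the PI 3-kinase subunit, was at the floor on some arrays and well above background on others, and both kinds occurred within each ethanol group. On one probe set (U50412_at) the 3 TEN-220 arrays stood at the floor of 9.34, as did EtOH-220 replicate 3 and EtOH-160 replicates 2 and 3, while EtOH-220 replicates 1 and 2 reached 147 and 149, EtOH-160 replicates 1 and 4 reached 173 and 131, and TEN-160 read 51.6, 52.3 and 10.1. The other probe set (D64045_s_at) was at the floor on the same 6 arrays and on EtOH-160 replicate 4. It was brightest on the same 3 arrays as the first, at 79.3 and 69.1 in EtOH-220 and 81.6 in EtOH-160. Over the 13 arrays the log2 signals of both had a Pearson correlation of 0.82, given as a description. Both were outside the main test. In the fit without a filter no change was called, with the smallest adjusted p at 0.313 and SEs of 0.917 to 1.92, so these probe sets do not settle whether Pik3r1 differed between the diets.

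**Figure D1:**
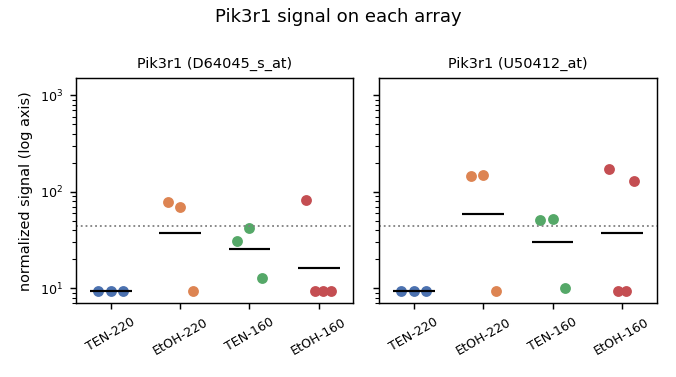
Normalized signal of the 2 Pik3r1 probe sets on each array (log axis, points are arrays, black bars are geometric means of the group, the dotted line is the background of 43.9). All 3 TEN-220 arrays lie at the floor of 9.34, and the ethanol groups split into arrays at the floor and arrays well above background.

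Pdpk1, the kinase that activates AKT, gave the clearest separation. Its signals were 177, 149 and 107 in TEN-220, 123, 142 and 114 in EtOH-220, and 157, 174, 177 and 120 in EtOH-160. On the 3 TEN-160 arrays it was at the floor of 9.34, with deposited signals of 9.1, 12.9 and 10.2. Every TEN-160 array was thus below background, and every other array was more than 2-fold above it. Pdpk1 fell by 3.92 without ethanol at the lower energy supply (SE 0.272, limma adjusted p = 5.84e-06), which is at least 3.21-fold with TEN-160 set at background, and rose by 4.06 with ethanol at 160 kcal (SE 0.255, adjusted p = 1.55e-06), at least 3.54-fold. Both comparisons share the TEN-160 arrays. By p it was the first of the 5244 tested probe sets in each, and by size of the change the 6th and the 5th. Because all 3 arrays were set to the floor their spread is 0 there, which bears on the p-values and on the rank by p. With the floor raised to the background the changes were −1.68 (adjusted p = 0.000459) and 1.82 (adjusted p = 0.000211), both still called. That refit again sets the 3 arrays to 1 value, so it tests the size of the change and not the spread of 0. The difference between the ethanol effects at the 2 energy supplies was 4.22 (SE 0.373, adjusted p = 0.000124). With the floor at background it was 1.99 (adjusted p = 0.00365), so its size depends on the floor. Among the other 10 arrays Pdpk1 differed little: the change was −0.16 for ethanol at 220 kcal, 0.30 for energy with ethanol and 0.14 for EtOH-160 against TEN-220, with adjusted p of 0.713 to 0.891. Pdpk1 rests on 1 probe set, so no other one could be set against it.

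Akt1, the first AKT isoform, had the same order of groups on both of its probe sets, with TEN-160 lowest and EtOH-160 highest. On the probe set D30040_at the signals were 256, 206 and 352 in TEN-220, 107, 200 and 255 in EtOH-220, 45.9, 43.7 and 96.5 in TEN-160, and 237, 282, 420 and 406 in EtOH-160. All 3 TEN-160 arrays lay below the other 10, and 1 of them lay just under background. It fell by 2.19 in TEN-160 against TEN-220 (SE 0.375, adjusted p = 0.00165) and rose by 2.496 in EtOH-160 against TEN-160 (SE 0.350, adjusted p = 0.000425).

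The brighter probe set of Akt1, rc_AA799664_at, read 981, 906 and 979 in TEN-220, 621, 928 and 833 in EtOH-220, 557, 624 and 692 in TEN-160, and 885, 1054, 1018 and 1085 in EtOH-160. Here the TEN-160 arrays lay below TEN-220 and EtOH-160, but 1 EtOH-220 array fell among them. The changes had the same signs and were smaller, a fall of 0.62 at the lower energy supply (SE 0.171, adjusted p = 0.0239) and a rise of 0.70 with ethanol at 160 kcal (SE 0.160, adjusted p = 0.00798). The first of these was lost without any 1 of the 3 TEN-220 arrays or without TEN-160 replicate 1; whichever array was dropped, the change lay from −0.70 to −0.54, with 0.0797 as the highest adjusted p. The log2 signals of both probe sets had a Pearson correlation of 0.94 over the 13 arrays and of 0.88 over the 10 arrays other than TEN-160. The difference between the ethanol effects was 3.09 (SE 0.513, adjusted p = 0.00460) on the first probe set and 0.98 (SE 0.234, adjusted p = 0.0259) on the brighter one. The latter was lost without any 1 of the 3 TEN-220 arrays or without TEN-160 replicate 1, where 0.0678 was the highest adjusted p.

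Without TEN-160, Akt1 was the one member with a positive change on both probe sets in EtOH-160 against EtOH-220 past the unadjusted threshold of limma, by 0.89 (SE 0.350) and 0.36 (SE 0.160). Neither was called, at limma adjusted p of 0.365 and 0.424, and the groups overlapped on both. In EtOH-160 against TEN-220 the changes were 0.30 and 0.08.

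**Figure D2:**
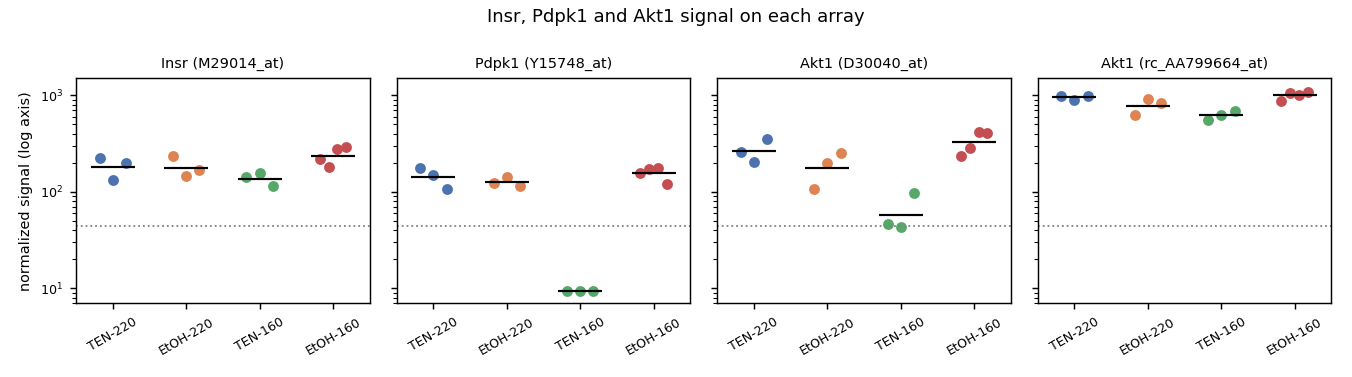
Normalized signal of Insr, Pdpk1 and the 2 Akt1 probe sets on each array (log axis, points are arrays, black bars are geometric means of the group, the dotted line is the background of 43.9). TEN-160 is the lowest group in all 4 panels. In the Pdpk1 panel its 3 arrays lie at the floor of 9.34, below all 10 others.

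Akt2, the isoform most tied to glucose metabolism, did not follow Akt1 on its brighter probe set (D30041_at). The group means there were 298 without and 270 with ethanol at 220 kcal, and 245 without and 271 with ethanol at 160 kcal, and its pairwise changes were between −0.28 and 0.14, with intervals that together reached from −0.79 to 0.62. All 4 groups overlapped. The dimmer probe set (rc_AI105076_s_at) read 37.6, 87.7 and 40.03 in TEN-160 and 120, 79.5, 122 and 129 in EtOH-160. Here 2 TEN-160 arrays lay under the background and the third fell inside the range of EtOH-160. The change with ethanol at 160 kcal was 1.12 (SE 0.388, adjusted p = 0.0532) and was not called, although it was without TEN-160 replicate 2 (1.51, adjusted p = 0.0181) and without any 1 of TEN-220 replicates 2 and 3 or EtOH-160 replicate 2, as well as with array weights (1.28, adjusted p = 0.0389). The change at the lower energy supply without ethanol was −0.94 (SE 0.415, adjusted p = 0.136), and it was called without TEN-160 replicate 2 or TEN-220 replicate 2.

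Gsk3a and Gsk3b, the glycogen synthase kinases that AKT inhibits, had group means close to each other. Gsk3a read 427 in TEN-220, 452 in EtOH-220, 466 in TEN-160 and 474 in EtOH-160, and its single arrays ran from 360 to 597 with all groups overlapping. Its 5 pairwise changes were between 0.02 and 0.15, and no 95% interval went beyond −0.41 or 0.59. This was the narrowest such range among the 14 tested probe sets. Gsk3b was dim on both probe sets, with means of 65.4 to 90.1 on one (X53428cds_s_at) and 61.7 to 69.2 on the other (X73653_at), and 1 array in each was under background. Its pairwise changes were between −0.17 and 0.46, with intervals that together reached from −0.996 to 1.37.

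Ptpn1, the phosphatase, had 4 tested probe sets that did not agree on a direction. On the probe set rc_AI113289_s_at the signals were 278, 244 and 295 in TEN-220 and 153, 191 and 157 in EtOH-220, with no overlap. The change with ethanol at 220 kcal was −0.71 (SE 0.211, unadjusted p = 0.00482), the smallest p of any member in that comparison, and it was not called (adjusted p = 0.294). The brightest probe set (M33962_g_at) also had its 3 TEN-220 arrays, at 807, 784 and 796, above all EtOH-220 arrays (582 to 729) and all EtOH-160 arrays (528 to 622), with changes of −0.26 and −0.50 (adjusted p = 0.681 and 0.200). The probe set rc_AI112391_s_at had changes of the opposite sign in the same comparisons, 0.21 and 0.10. M33962_at had −0.23 and −0.45, and a change of −0.83 in TEN-160 against TEN-220 (adjusted p = 0.121) that rested in part on 1 array at 70.5. Pairwise correlations between the 5 Ptpn1 probe sets over the 13 arrays ran from −0.31 to 0.52, against 0.94 for the pair of Akt1. The fifth, rc_AI180145_s_at, ran from 19.8 to 76.1 and did not pass the filter.

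**Figure D3:**
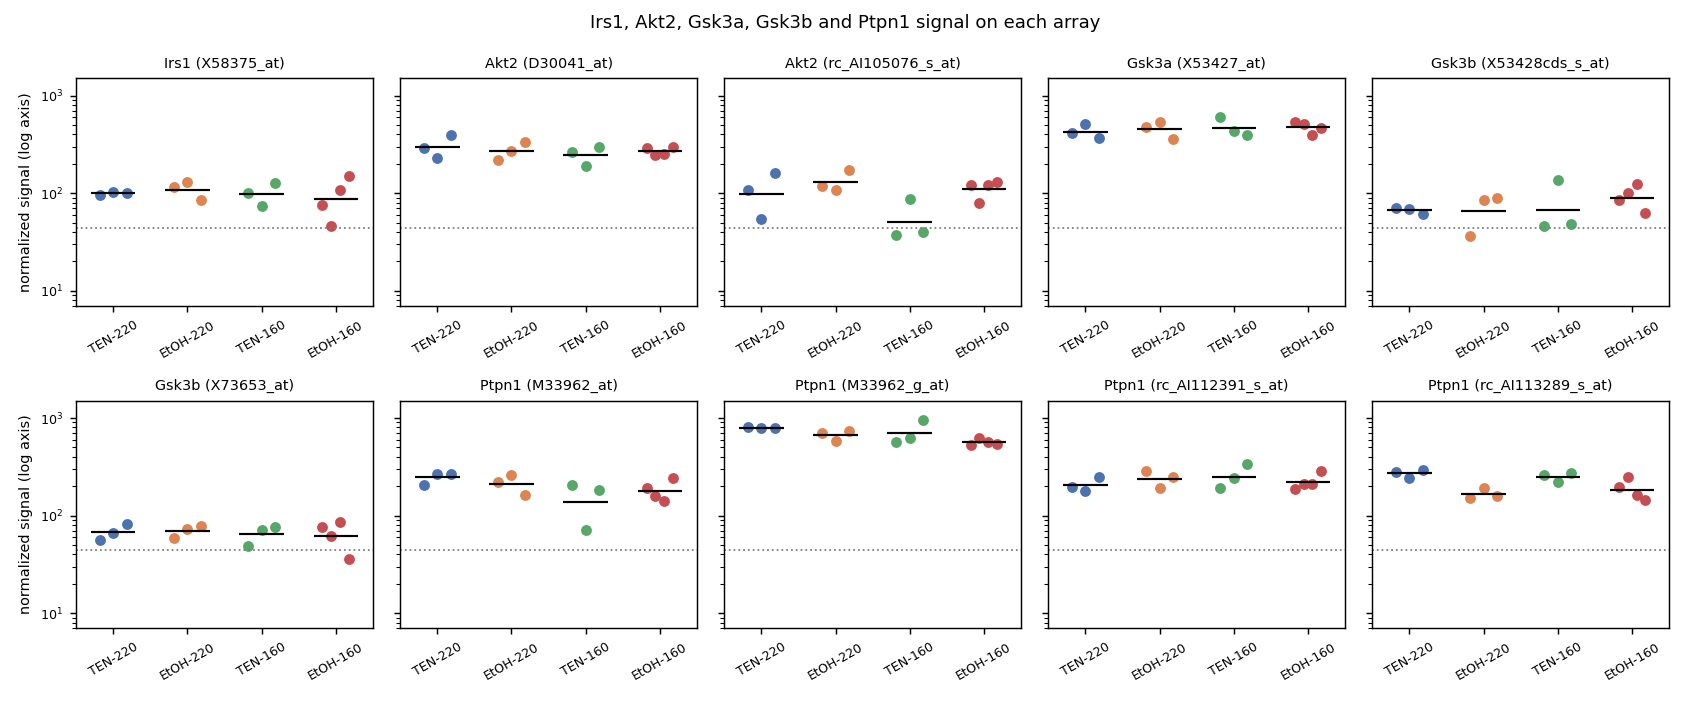
Normalized signal of the 10 tested probe sets of Irs1, Akt2, Gsk3a, Gsk3b and Ptpn1 on each array (log axis, points are arrays, black bars are geometric means of the group, the dotted line is the background of 43.9). None of these was called in a comparison; TEN-220 lies above EtOH-220 without overlap for the Ptpn1 probe sets rc_AI113289_s_at and M33962_g_at.

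Counted over the 14 tested probe sets, limma called 3 in TEN-160 against TEN-220, all lower, where 17.8% of all 5244 tested probe sets were called in either direction and 9.94% as lower. It called 4 in EtOH-160 against TEN-160, all higher, where 22.3% of all were called and 11.9% as higher. These are 21.4% and 28.6% of the members, beside these shares of all probe sets, and both Akt1 probe sets read the same gene. The median change of the 14 was −0.24 and 0.26 in these comparisons, beside −0.03 and 0.02 for all. TEN-160 lay below all other arrays for 2 of the 14, Pdpk1 and an Akt1 probe set, and for 7.28% of all. It lay above all other arrays for 0 of the 14, beside 7.72% of all. The groups did not overlap for 4 of the 14 in TEN-160 against TEN-220, beside 36.5% of all, and for 4 in EtOH-160 against TEN-160, beside 31.1%. At an unadjusted p under 0.05 the counts were 5 and 6 of the 14, beside 31.5% and 35.6% of all. In the test of whether the ethanol effect differed between energy supplies 3 of the 14 were called, all higher, beside 7.13% of all in either direction, 4.04% higher and 3.09% lower; 4 of the 14 had an unadjusted p under 0.05, beside 24.4% of all.

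In the 3 comparisons without TEN-160 limma called 0 members. With ethanol at 220 kcal 0.0191% of all probe sets were called; 1 of the 14 had an unadjusted p under 0.05, beside 9.99% of all, and 2 did not overlap between the groups, beside 17.8%. For energy supply in ethanol-fed rats 0.286% of all were called (0.21% higher and 0.0763% lower); 2 of the 14 had an unadjusted p under 0.05, beside 11.1% of all, and 0 did not overlap, beside 10.2%. For EtOH-160 against TEN-220 2.23% of all were called (1.33% higher and 0.896% lower); 2 of the 14 had an unadjusted p under 0.05, beside 13.8% of all, and 1 did not overlap, beside 16.8%. A fit without the TEN-160 arrays, chosen after seeing the data, also called 0 members in these 3 comparisons.

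**Figure D4:**
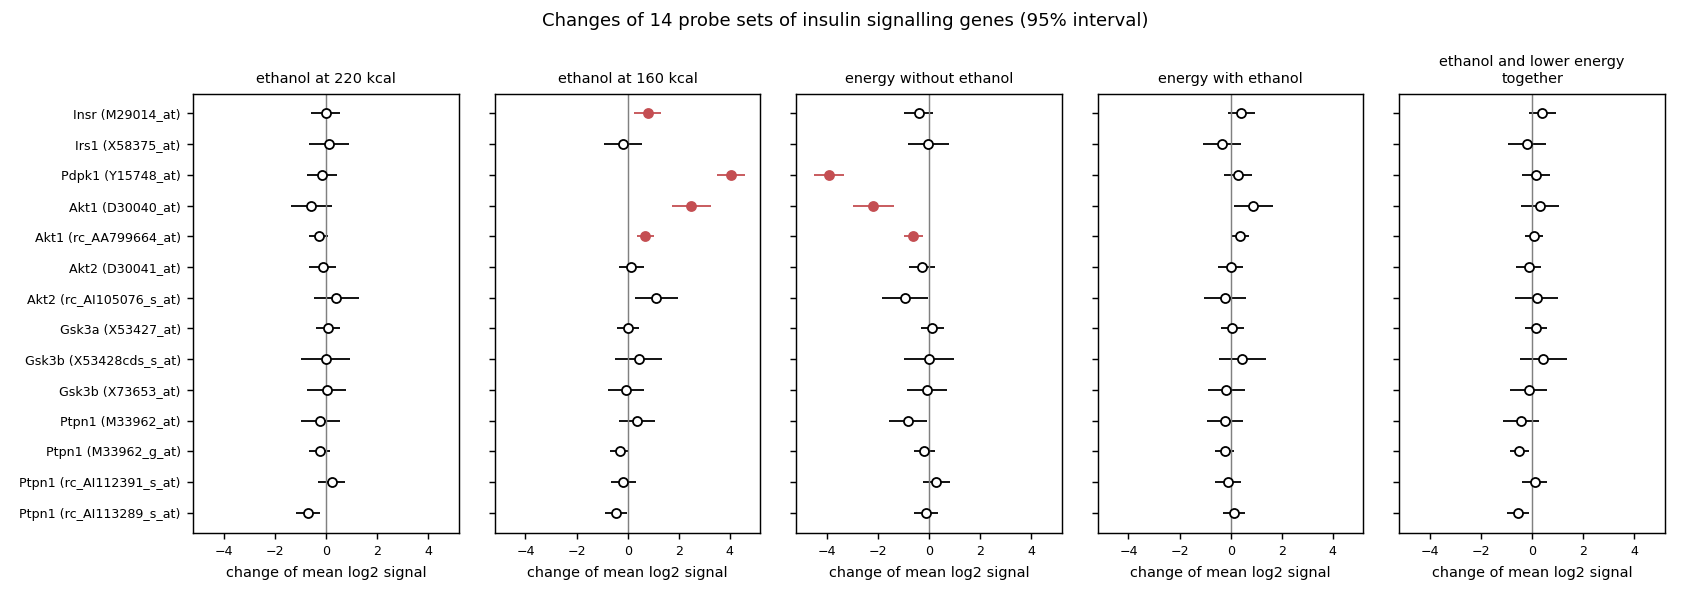
Change of mean log2 signal for the 14 tested probe sets in the 5 pairwise comparisons (points, with 95% intervals as bars; filled red where called at an adjusted p under 0.05). Calls lie only in the 2 comparisons that use TEN-160, with Pdpk1 at 4.06 and −3.92.

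Other genes of the relay were counted from lists written with earlier results of these data known, each gene by its brightest probe set. Near the receptor, 15 further adaptors and regulators were measured. Of these, 1 was called at the lower energy supply without ethanol: Enpp1, which encodes an ectoenzyme that inhibits the receptor, rose by 0.71 (SE 0.218, adjusted p = 0.0367). None was called with ethanol at 160 kcal. Over all tested probe sets 17.8% and 22.3% were called in these comparisons. Irs2, the second main hepatic adaptor, had changes of −0.43 and 0.59 (adjusted p = 0.213 and 0.0637). Of 5 further PI 3-kinase and phosphoinositide phosphatase genes 0 were called in either comparison.

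Downstream of PDK1 and AKT, 3 of 25 measured genes rose and 2 fell at the lower energy supply without ethanol, with a median of 0.21. Over all tested probe sets 7.84% were called higher and 9.94% lower there, with a median of −0.03. Rps6, the ribosomal protein that S6 kinase phosphorylates, rose by 0.88 (SE 0.139, adjusted p = 0.00104). Prkaa2, a catalytic subunit of the energy sensor AMPK, rose by 2.01 (SE 0.479, adjusted p = 0.0114) and Rheb, the GTPase that activates mTOR, by 0.58 (SE 0.149, adjusted p = 0.0171). Hsp90ab1, a chaperone that stabilises AKT, fell by 0.48 on its brightest probe set (SE 0.130, adjusted p = 0.0213), while its other 3 had −0.35, −0.089 and 0.13, none called. The atypical protein kinase C gene Prkcz, whose product PDK1 also phosphorylates, fell by 1.58 (SE 0.452, adjusted p = 0.0282). With ethanol at 160 kcal 11.9% of all probe sets were called higher and 10.4% lower, with a median of 0.02. Of the 25 genes 1 rose and 6 fell in that comparison, with a median of 0.02. Among those with the smallest adjusted p, Prkcb fell by 1.44, Rheb by 0.95 and Rps6 by 0.86 (SE 0.212, 0.140 and 0.130). The second probe set of Rheb had the opposite sign in both comparisons, whereas that of Rps6 had the same signs as the first, at 0.13 at the lower energy supply and −0.32 with ethanol at 160 kcal; none of these was called.

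The RAS and MAPK branch, the other arm of the receptor, had 8 measured genes. At the lower energy supply without ethanol 2 fell and 0 rose, beside 9.94% lower and 7.84% higher over all probe sets. With ethanol at 160 kcal 3 rose and 1 fell, beside 11.9% higher and 10.4% lower over all. Map2k2, which encodes the ERK-activating kinase MEK2, fell by 0.92 in the first of these comparisons and rose by 0.92 in the second (SE 0.220 and 0.206). Both comparisons share the TEN-160 arrays. Its other 2 probe sets were called with the same signs, at −1.09 and −1.05 and at 1.01 and 0.96. Like Pdpk1, Map2k2 had its lowest mean in TEN-160, at 964 against 1820 to 1847 in the other groups. Dusp1, a phosphatase of MAP kinases, fell by 2.51 and rose by 1.96 (SE 0.478 and 0.447), and its 3 probe sets had the same sign in the first comparison but not in the second. Mapk9, encoding the stress kinase JNK2, fell by 0.98 with ethanol at 160 kcal on its brightest probe set (SE 0.204, limma adjusted p = 0.00458). Its other 2 probe sets had −0.61 and −0.59 (adjusted p = 0.0699 and 0.0544), the same sign, and were not called.

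Genes that insulin is known to control in liver were counted too. Over all probe sets 7.84% were called higher and 9.94% lower at the lower energy supply without ethanol, with a median of −0.03. With ethanol at 160 kcal these shares were 11.9% and 10.4%, with a median of 0.02. Of 8 measured genes that insulin induces, 5 fell and 0 rose at the lower energy supply without ethanol, with a median of −1.56, and 4 rose and 0 fell with ethanol at 160 kcal, with a median of 0.94. Pnpla3 fell by 3.83, Fasn by 2.21 and Scd by 1.56 in the first of these (SE 0.527, 0.307 and 0.239), and Fasn rose by 2.05, Scd by 1.35 and Acly by 1.30 in the second (SE 0.287, 0.224 and 0.298). The other probe set of Fasn was called with the same signs (−2.83 and 2.53). That of Scd had the opposite signs, at 0.39 and −0.21, neither called. These are enzymes and a lipid-droplet protein of fat synthesis. Of 7 genes that insulin represses, 3 rose and 0 fell at the lower energy supply: Cpt1a by 2.07, Igfbp1 by 3.16 and Pck1 by 2.48 (SE 0.314, 0.587 and 0.632). With ethanol at 160 kcal 1 rose and 1 fell: Sds, a serine-degrading enzyme, by 4.44 and Cpt1a by 1.33 (SE 0.615 and 0.294), while Pck1 had 0.07 (adjusted p = 0.953) and Igfbp1 −1.10 (adjusted p = 0.170). These comparisons share the TEN-160 arrays, whose differences in control signals are given above, and their part in the result was not tested.

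**Figure D5:**
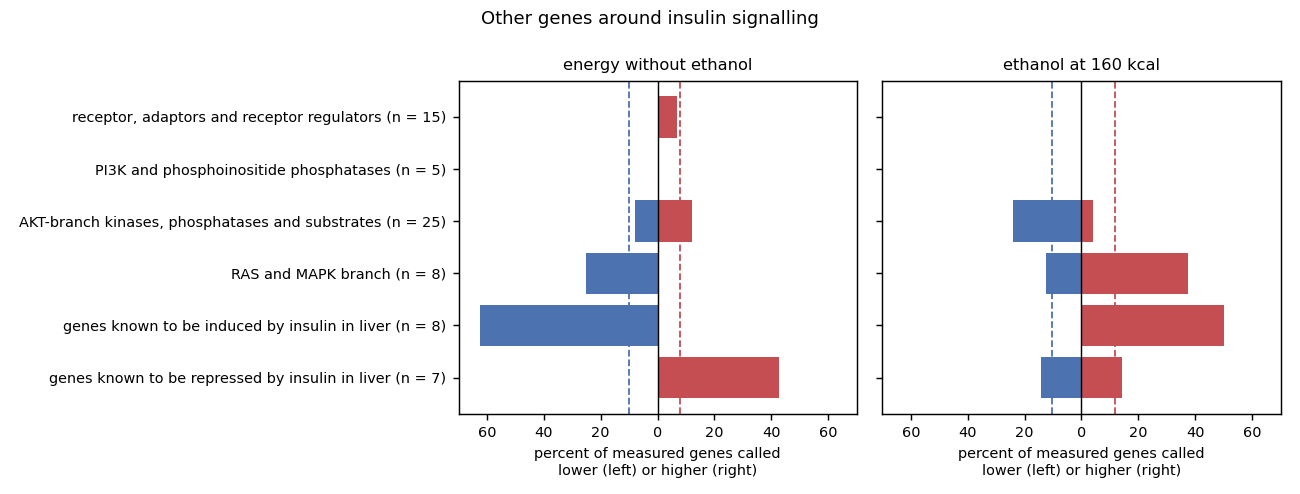
Percent of measured genes called lower (blue, to the left) or higher (red, to the right) in 6 lists of other genes around insulin signalling, for the 2 comparisons that use TEN-160; n is the number of measured genes, and dashed lines give the share of all 5244 probe sets called in that direction (9.94% lower and 7.84% higher on the left, 10.4% and 11.9% on the right). The list of insulin-induced genes has 5 of 8 lower in the left panel and 4 of 8 higher in the right one. Bars count each gene by its brightest probe set, whereas the dashed lines count every tested probe set.

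Markers of other liver cells were compared for the same arrays. Of all tested probe sets, 7.84% were called higher and 9.94% lower in TEN-160 against TEN-220. In EtOH-160 against TEN-160 these shares were 11.9% and 10.4%. Of 5 measured endothelial markers 2 rose in TEN-160 against TEN-220 and 1 fell in EtOH-160 against TEN-160. Their summed signal was 850 to 1368 in TEN-160, 649 to 681 in TEN-220, 873 to 896 in EtOH-220 and 739 to 949 in EtOH-160. TEN-160 thus overlapped with both ethanol groups. Means of Pecam1, Vwf, Kdr and Lyve1 were higher in TEN-160 than in TEN-220 and EtOH-160. Flt1 went the other way, with its lowest mean in TEN-160 (151, against 196 in TEN-220, 249 in EtOH-220 and 230 in EtOH-160). Of 5 tested stellate cell and fibroblast markers 2, both collagen genes, fell in EtOH-160 against TEN-160. The sums over the 8 on the array were 1333 to 2167 and 2044 to 4539. Means of Col1a1, Col1a2, Col3a1, Des and Pdgfrb were lower in EtOH-160 than in TEN-160. Those of Acta2 (48.9 against 15.4), Dcn (139 against 106) and Lum (40.2 against 36.9) were higher. Col3a1 was the brightest of them, at 1010 in EtOH-160 and 1318 in TEN-160. Of 4 tested pancreas markers 1 rose in TEN-160 against TEN-220 and 1 fell in EtOH-160 against TEN-160. The summed signal of the 6 pancreas markers on the array was 2850 to 3184 in TEN-160, above all other arrays (2075 to 2623). Amy2a3 differed most in array units: its group mean was 1510 (TEN-160), against 1034 (TEN-220), 892 (EtOH-220) and 780 (EtOH-160). Group means ran only from 484 to 561 for Ins1 and from 740 to 826 for Ins2. For Cela1 the TEN-160 mean, 102, lay between 37.7 (EtOH-220) and 107 (EtOH-160). Gcg and Prss1 had group means below background in all 4 groups. The sums of 6 Kupffer cell markers in TEN-160 (5782 to 8375) overlapped with those of every other group, while all TEN-220 arrays (6712 to 7240) lay above all EtOH-160 arrays (5587 to 6516). Of 8 hepatocyte markers 1 rose in TEN-160 against TEN-220 and 1 fell in EtOH-160 against TEN-160, and of 5 tested Kupffer cell markers 1 rose in the latter. All 5 endothelial markers had group means above background, as had 5 or 6 of the 8 stellate cell and fibroblast markers in each group. The part of these cell types in the changes of Pdpk1, Akt1 and Insr was not tested.

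The genes whose pattern over the 13 arrays was most like that of a member were found by Pearson correlation of log2 signals. For Pdpk1 they were Igfbp3, Cyp2d2 and Sdc4, each at 0.97. Over the 10 arrays other than TEN-160 these values were 0.62, 0.42 and 0.15, so the likeness lies mainly in the TEN-160 arrays. For the brighter probe set of Akt1 they were Aspg, Capns1 and Ivd, each at 0.95, and 0.94, 0.90 and 0.87 over the 10 arrays. For Insr they were Rplp0 (0.87), Csk (0.85) and Got2 (0.81), and 0.83, 0.83 and 0.73 over the 10 arrays. For Irs1, Akt2, Gsk3a, Gsk3b and Ptpn1 the highest correlation was 0.81 (Capg), 0.88 (Prkar1b), 0.79 (Ndufa5), 0.85 (Arfrp1) and 0.86 (Rpl18). These are the highest of the many values computed over 13 arrays and describe likeness only.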

How the data were processed

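Liver RNA of 13 samples was read on 1 one-colour Affymetrix rat array each. Each deposited value is a probe set's intensity, linear, which the authors computed with MAS5 (no version given), per the submitters' processing notes. After trimming 2%, 12 arrays had a mean of 501 and TEN-220 replicate 1 a mean of 133. All 8740 probe sets other than the 59 controls were quantile normalized, set to at least the 10th percentile (9.34) and taken to log2, and the dimmest 40% were left out, which left 5244. Means of 4 groups were fitted with limma 3.58.1 in R 4.3.3 (eBayes with a trend, two-sided, Benjamini-Hochberg adjustment over the 5244 within each of 6 comparisons). The script was tested on simulated data. Promoters are RefSeq's. Genes were named by the annotation's single symbol, and all 17 probe sets matched RefSeq by Entrez ID. Named are the 9 members, per list and comparison the called genes with the smallest adjusted p (up to 3), the known insulin targets Igfbp1, Pck1 and Fasn and the 3 most alike genes; Irs2, Alb and the 4th and 5th genes of a list were added after their values were seen. Members and lists were chosen with earlier results of these data known. No 2 arrays of a group were duplicates (highest correlation 0.972). Precision is limited by how many arrays there are, with a median SE of 0.238 or 0.254 between 2 groups. Same-numbered arrays of different groups did not deviate together (highest correlation 0.0853), so numbers were not taken as pairs. Alternatives covered normalization, floor, filter, variance model, array weights, threshold, a replicate block, the groups fitted and each array left out.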

Additional observations from a re-analysis of the deposited data

Results flagged for a closer look

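The ethanol effect differed between the energy supplies for Pdpk1 (4.22 on the log2 scale, a size set by the floor in TEN-160, and 1.99 with the floor at background) and for the 2 probe sets of Akt1 (3.09 and 0.98), by limma's test of the difference itself; all 3 rest on the TEN-160 arrays. The cause was not tested.

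Within EtOH-160, 1 array stood apart from the other 3 on 2 of the 17 probe sets, where the gap to the nearest array was large against the group's whole range. For Pik3r1 (D64045_s_at) replicate 1 was at 81.6 and the other 3 arrays at the floor, a gap of 1 of the range. For Akt2 (rc_AI105076_s_at) replicate 2 was lowest, at 79.5, with a gap of 0.859 of the range. Among values that vary freely, chance alone gives such a gap in about 1 of 20 groups, and 17 groups were looked at. This rate does not apply to the Pik3r1 probe set, where setting 3 arrays to the same floor fixed the gap at 1.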

How the results depend on the processing

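With the values as deposited, neither rescaled nor quantile normalized, the members called were 2 in place of 4 for ethanol at 160 kcal, 1 in place of 3 for energy without ethanol and 1 in place of 3 for the interaction; what remained was Pdpk1 in all 3 and 1 Akt1 probe set (D30040_at) in the first. Trimmed-mean scaling, which rescales each array, gave 3, 3 and 3. With array weights 1 member was called for EtOH-160 against TEN-220, the Ptpn1 probe set M33962_g_at (−0.51, adjusted p = 0.0479). Leaving out single arrays gave 3 to 6 calls for ethanol at 160 kcal, 2 to 4 for energy without ethanol, 2 to 3 for the interaction and 0 in the other 3 comparisons. The replicate block, in which EtOH-160 replicate 4 has a number of its own and so drops out, gave 3, 3 and 3 calls, with Insr lost (0.70, adjusted p = 0.0763), and 0 in the others; over all probe sets it called 890 for ethanol at 160 kcal. Without a filter Insr was lost as well (adjusted p = 0.0620). Pdpk1 kept its calls under every alternative in which it was tested. Its limma adjusted p was up to 0.00253 in the pairwise comparisons called and 0.0219 in the interaction. With the dimmest 60% of probe sets left out Pdpk1 was not tested, as its mean signal stood at percentile 44.2. No called change reversed. The fit without TEN-160 and the floor at background were chosen after seeing the data. Signal near the background limits Gsk3b, Pik3r1 and the dimmer Akt2 probe set, and Pdpk1 in TEN-160 has only a bound.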
